A study of Homo sapiens with 8 samples.

Results

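The genes described here are 10 ligands and receptors of the VEGF, PDGF and KIT systems: VEGFA, VEGFB, KDR, FLT1 and NRP1; PDGFA, PDGFRA and PDGFRB; and KITLG and KIT. Their members were the transcripts of the combined assembly that carry 1 of these gene names, which gave 57 of 96614 transcripts and 10 of 29838 genes with counts. The libraries were 8 PacBio Sequel II long-read RNA libraries of the established human embryonic stem line H1, with 2 repeats in each of 4 groups. Undifferentiated cells (hPSC) grew in mTeSR1 on Matrigel. Ectoderm cells were kept in medium with 15% KOSR and the inhibitors A83-01, PNU-74654 and Dorsomorphin at 2 µM each. Endoderm cells received WNT3A and 100 ng/ml Activin A with 0.5% serum. Mesoderm cells received 100 ng/ml VEGF, 100 ng/ml BMP4 and 10 ng/ml bFGF with 0.5% serum, plus 100 ng/ml Activin A during the opening 24 hours. Differentiated cells were collected after 5 days. Only the mesoderm medium therefore held an added ligand of the genes described here.

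VEGFA, made by many tissues, acts through the receptor tyrosine kinases KDR and FLT1, with NRP1 as co-receptor, and is best known for the formation and growth of blood vessels. PDGFA binds PDGFRA, which marks much early mesoderm and mesenchyme, whereas PDGFRB is typical of cells that support vessels. KITLG, or stem cell factor, activates KIT on blood progenitors, germ cells and melanocytes.

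Several of these genes make proteins of different reach through alternative exons. VEGFA exon 6 (chr6:43780732-43780803, plus strand) and exon 7 (chr6:43781956-43782087, plus strand) encode parts that bind heparan sulphate and hold the ligand near the cell, so forms without them diffuse more freely. Exon 6 of KITLG (chr12:88515534-88515617, minus strand) encodes the main site at which the membrane-bound ligand is cut and released. Exon 6 of PDGFA (chr7:500431-500499, minus strand) encodes a basic tail that retains the ligand. In KIT, exon 9 has an alternative end (chr4:54726009-54726050, plus strand, covers its last 42 bases), which adds 12 bases to the extracellular part. These sequences are shown because the forms below were told apart by their presence or absence. They are from GENCODE 29 on GRCh38, read in the direction of the transcript, and the capitals mark the 12 optional bases of KIT.
VEGFA exon 6: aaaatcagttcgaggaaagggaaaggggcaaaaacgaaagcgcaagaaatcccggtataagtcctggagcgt
VEGFA exon 7: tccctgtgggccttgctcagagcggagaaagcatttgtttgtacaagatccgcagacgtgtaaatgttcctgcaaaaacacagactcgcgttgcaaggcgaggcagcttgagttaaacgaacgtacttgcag
KITLG exon 6: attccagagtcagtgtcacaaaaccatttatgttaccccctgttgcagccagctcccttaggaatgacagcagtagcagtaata
PDGFA exon 6: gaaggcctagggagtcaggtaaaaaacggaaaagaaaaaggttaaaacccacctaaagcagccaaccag
KIT end of exon 9: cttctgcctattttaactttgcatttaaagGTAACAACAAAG

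Libraries held from 503840 to 1180888 reads, so 1 read was worth between 0.847 and 1.98 CPM (the count scaled to the same total in every library). A gene at 0 could have up to 3 reads, or 2.54 to 5.95 CPM, by counting error alone. Gene counts were tested with edgeR's quasi-likelihood test over 10843 genes, and a gene was called where the Benjamini-Hochberg adjusted p was under 0.05. The labels do not say whether repeats were separate cultures, so the p-values measure only the spread between these libraries. Markers went with the labels in part. All 5 tested endoderm markers were called higher in endoderm than in hPSC. SOX17 had 150 and 16 counts in the endoderm libraries, and FOXA2, which was not tested, had 3 and 4. Of 4 tested ectoderm markers, 3 were called higher in ectoderm, although SOX1 was at 0 in all 8 libraries. In endoderm, 2 of the 4 tested ectoderm markers and all 4 tested mesoderm markers were also called higher than in hPSC. All 8 tested pluripotency markers were called lower in mesoderm, against 6 in ectoderm and 5 in endoderm. In mesoderm, 3 of 4 tested mesoderm markers were called higher, among them HAND1, whereas TBXT had 1 and 0 counts and MIXL1, FOXF1 and MESP1 had 0. All 8 tested of 10 amnion and trophoblast markers were also called higher there, and their summed level was 5709 to 6157 CPM in mesoderm against 19.6 to 80.3 CPM in the other 6 libraries. The part of that pattern in the mesoderm results below was not tested.

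Of the 10 genes, KDR, NRP1, VEGFA, PDGFRB and KIT passed the filter on low counts; FLT1, VEGFB, PDGFRA, PDGFA and KITLG did not. Against hPSC, 1 of the 5 tested genes was called in ectoderm (KDR, lower), where 48.7% of all tested genes were called. In endoderm 2 were called (NRP1 higher, VEGFA lower), against 27.2% of all genes, and in mesoderm 3 were called (NRP1 higher, KDR and KIT lower), against 35.1%. Between differentiated groups, mesoderm and ectoderm differed in 2 of the 5 (NRP1 and KIT; 35.5% of all genes), mesoderm and endoderm in 3 (KDR, NRP1 and KIT; 47.1%), and ectoderm and endoderm in 3 (KDR, NRP1 and VEGFA; 63%). The scaling bears on the smaller differences. CPM values here use library totals, whereas the fitted log2 fold changes use TMM factors (from 0.726 to 1.27), and without TMM the median over all genes against hPSC moved by 0.41 (ectoderm), -0.33 (endoderm) and 0.23 (mesoderm). The share of calls that were higher then moved from 49% to 66.5% in ectoderm, from 49.3% to 31.7% in endoderm and from 48% to 59.1% in mesoderm. With so many genes called, the number of calls among the 5 is not in itself a result about them. The comparisons against hPSC share the same 2 hPSC libraries. These were less alike (Pearson r = 0.873) than the repeats of the other groups (0.946 to 0.967).

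**Figure D1:**
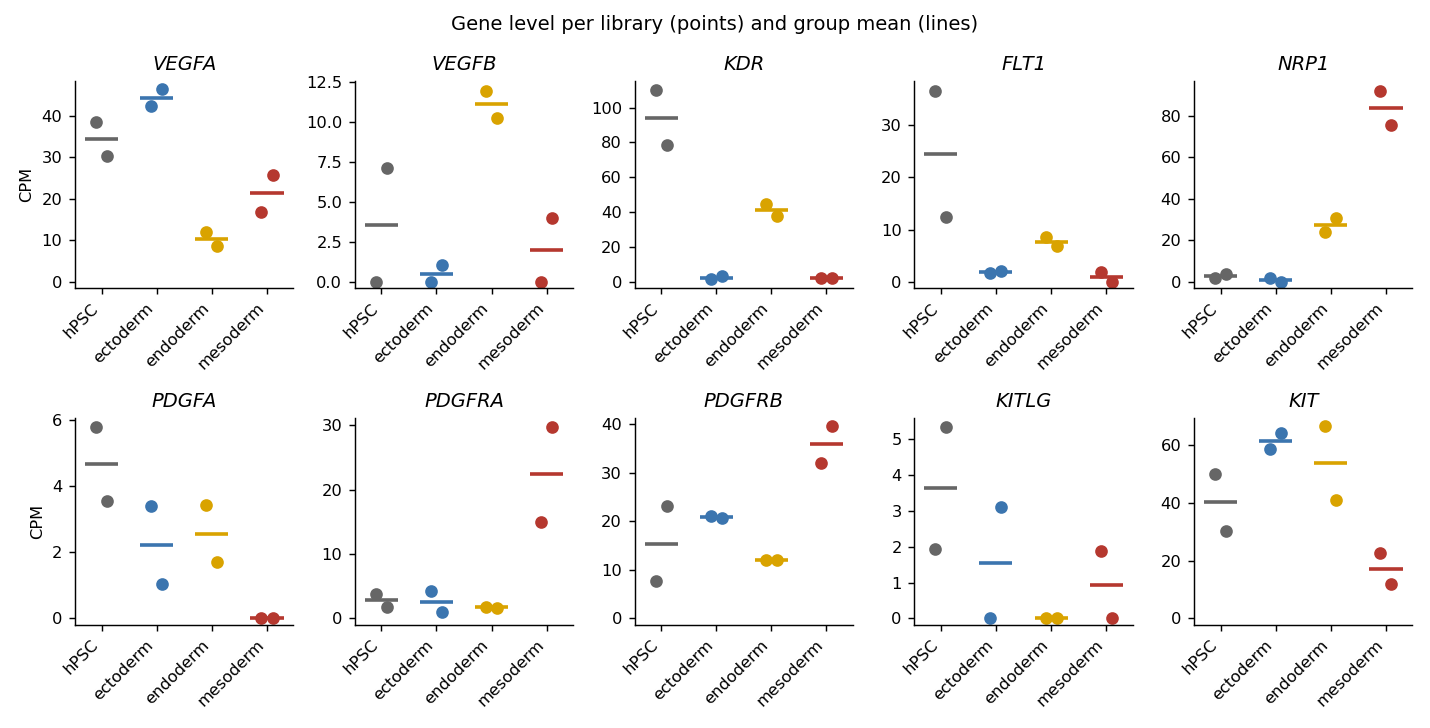
Level of each gene in CPM (vertical axis, own scale per panel) in the 4 groups; points are the 2 libraries of a group and lines their mean. KDR is high in hPSC, intermediate in endoderm and near 0 in ectoderm and mesoderm, while NRP1 is highest in mesoderm.

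VEGFA, the main ligand (chr6:43770206-43786487, plus strand), was counted in every library. It had 20 and 17 counts (hPSC), 50 and 45 (ectoderm), 7 and 5 (endoderm), and 9 and 13 (mesoderm). As a level this was 34.4 ± 5.85 CPM (hPSC), 44.4 ± 2.96 (ectoderm), 10.2 ± 2.42 (endoderm) and 21.4 ± 6.26 (mesoderm; SD, n = 2 each). Endoderm was the lowest group and ectoderm the highest by CPM, with no overlap between neighbouring groups, but ectoderm and hPSC did not differ in the fit (-0.05 ± 0.34, edgeR adjusted p = 0.919; 0.37 without TMM, adjusted p = 0.377). VEGFA was called lower in endoderm than in hPSC by a log2 fold change of -1.39 ± 0.46 (SE; edgeR adjusted p = 0.034) and higher in ectoderm than in endoderm by 1.34 ± 0.42 (edgeR adjusted p = 0.0117). The endoderm call against hPSC was lost with DESeq2 (adjusted p = 0.202), with no filter (edgeR adjusted p = 0.0884), with reference transcripts only (edgeR adjusted p = 0.0549) and on leaving out any 1 library except repeat 2 of hPSC. The call between ectoderm and endoderm was lost with DESeq2 (adjusted p = 0.0979), with a length trend removed (edgeR adjusted p = 0.0555) and without repeat 2 of endoderm (edgeR adjusted p = 0.0788). Mesoderm, which grew with added VEGF, differed from hPSC in VEGFA by -0.91 ± 0.41 (edgeR adjusted p = 0.0937), which did not pass the threshold. Mesoderm against ectoderm was -0.86 (edgeR adjusted p = 0.0801), and this was called without TMM (-1.05, edgeR adjusted p = 0.0408) and without either hPSC library.

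The 166 VEGFA counts fell on 10 transcripts. Forms with exon 7 and without exon 6 held 18 of 37 counts (hPSC), 29 of 95 (ectoderm), 2 of 12 (endoderm) and 12 of 22 (mesoderm). Forms with both exons 6 and 7 held 0, 13, 3 and 2 counts in the same order, and forms without either exon held 2, 15, 1 and 2. The other counts, 67 of 166 (40.4%, 95% exact binomial interval 32.8 to 48.2), were on 4 transcripts that keep or begin in the intron after exon 5. These hold the intron sequence and were not assigned to a form. Transcripts of 4443 and 5419 bases among them, each with 7 exons, also hold exon 6, as their lengths show. In this order they had 8 and 4 counts (hPSC), 8 and 12 (ectoderm), 1 and 1 (endoderm), and 3 and 2 (mesoderm). The transcript that begins in the intron covers all of exon 6. It had 5 counts (hPSC), 17 (ectoderm), 3 (endoderm) and 1 (mesoderm). The 0, 13, 3 and 2 counts above therefore leave out the exon 6 found in transcripts with this intron.

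Among the assigned counts, the form with exon 7 alone made up 11 of 12 and 7 of 8 counts (hPSC), 12 of 31 and 17 of 26 (ectoderm), 1 of 2 and 1 of 4 (endoderm), and 7 of 9 and 5 of 7 (mesoderm). Its share was 90% for hPSC (exact binomial interval 68.3 to 98.8), 50.9% for ectoderm (37.3 to 64.4), 33.3% for endoderm (4.33 to 77.7) and 75% for mesoderm (47.6 to 92.7). Both ectoderm libraries lay below both hPSC libraries. Over all VEGFA counts, with the intron transcripts included, the form with exon 7 alone held 48.6% for hPSC (31.9 to 65.6) and 30.5% for ectoderm (21.5 to 40.8). It held 16.7% for endoderm (2.09 to 48.4) and 54.5% for mesoderm (32.2 to 75.6), and these intervals of the 4 groups overlapped. The 2 endoderm libraries had only 6 assigned counts in all, so no permutation test was run, and the intervals cover counting error only. Of the assigned counts, the freely diffusing form without exons 6 and 7 held 10% for hPSC (1.23 to 31.7) and 26.3% for ectoderm (15.5 to 39.7). It held 16.7% for endoderm (0.421 to 64.1) and 12.5% for mesoderm (1.55 to 38.3), with overlapping intervals. In the authors' separate assembly of each group, the form with exon 7 alone held 20 of 20 assigned counts for hPSC, 41 of 95 for ectoderm, 0 of 6 for endoderm and 15 of 15 for mesoderm. The order of hPSC, ectoderm and endoderm was the same there, but the endoderm and mesoderm shares moved. The ectoderm assembly held no VEGFA transcript with the kept intron, so 95 ectoderm counts were assigned there, against 57 in the combined assembly. The hPSC number stayed at 20. The shares thus rest on unlike bases, and the same order is not separate support.

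**Figure D2:**
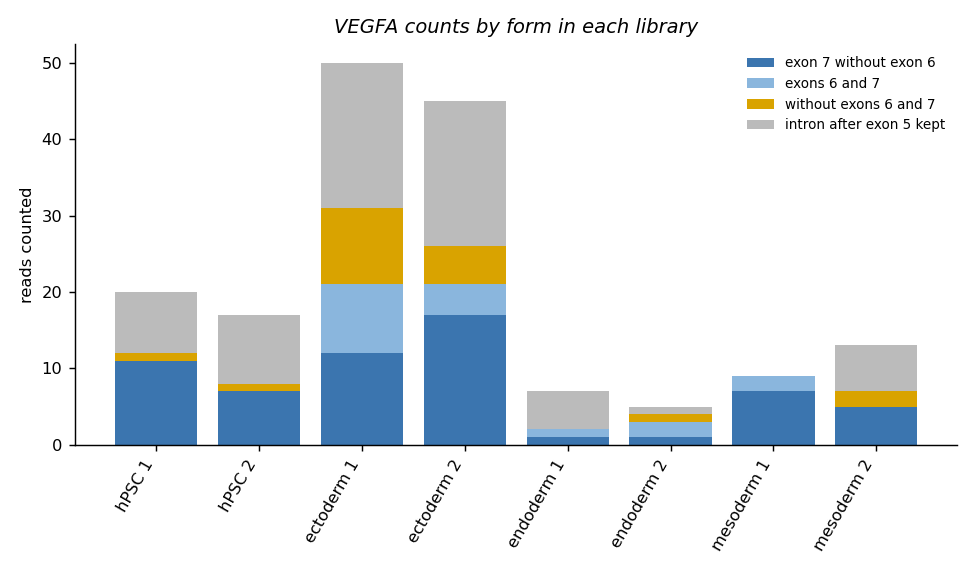
VEGFA reads counted in each of the 8 libraries (vertical axis), split by form; bars are stacked counts, not scaled for library size. Counts assigned to forms with both exons 6 and 7 are absent from the hPSC bars (0 of 37) and present in both ectoderm bars (13 of 95). Transcripts with the intron after exon 5, among which exon 6 is also found, had 17 of 37 (hPSC) and 38 of 95 counts (ectoderm).

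VEGFB, a ligand of FLT1 and not of KDR, was sparse, with 0 and 4 counts (hPSC), 0 and 1 (ectoderm), 7 and 6 (endoderm), and 0 and 2 (mesoderm). Endoderm was the only group with counts in both libraries. It fell below the filter; in the fit with no filter, ectoderm was below endoderm (edgeR adjusted p = 5.55e-05), as was mesoderm (edgeR adjusted p = 0.0171), and the difference between endoderm and hPSC was not called (edgeR adjusted p = 0.161). All 20 counts were on 1 transcript, which matches the reference form with the longer exon 6.

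KDR, the main signalling receptor for VEGFA (chr4:55078470-55125595, minus strand), was high in undifferentiated cells. It had 57 and 44 counts (hPSC), 2 and 3 (ectoderm), 26 and 22 (endoderm), and 1 and 1 (mesoderm). Its level was 94 ± 22.3 CPM (hPSC), 2.40 ± 0.996 (ectoderm), 41 ± 4.86 (endoderm) and 1.93 ± 0.072 (mesoderm; SD, n = 2 each). Ectoderm and mesoderm lay below every hPSC and endoderm library and overlapped each other. Against hPSC, KDR fell by 5.62 ± 0.44 (SE) on the log2 scale in ectoderm (edgeR adjusted p = 2.59e-07), and it fell by 5.69 ± 0.54 in mesoderm (edgeR adjusted p = 1.53e-06). As ratios of pooled counts per read, hPSC was 40.1 times ectoderm (95% exact interval 16.6 to 126) and 48.3 times mesoderm (13 to 405). Both calls held under each alternative that was run, with a highest adjusted p of 0.000184 for ectoderm and 0.00052 for mesoderm. In these bulk libraries, fewer cells that express a gene and less RNA per cell cannot be told apart. Endoderm also differed from ectoderm and mesoderm, both lower, with log2 fold changes of -4.77 ± 0.48 (edgeR adjusted p = 1.42e-06) and -4.84 ± 0.60 (edgeR adjusted p = 1.68e-05). Endoderm against hPSC was -0.85 ± 0.32 (edgeR adjusted p = 0.0607); the libraries did not overlap, and it was called lower without repeat 2 of hPSC (edgeR adjusted p = 0.0306) and without TMM (-1.19, edgeR adjusted p = 0.0178). All 156 counts were on 1 transcript with the 30 exons of the full-length receptor.

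FLT1 binds VEGFA tightly, signals weakly and has secreted forms that act as a decoy for the ligand. It had 19 and 7 counts (hPSC), 2 and 2 (ectoderm), 5 and 4 (endoderm), and 1 and 0 (mesoderm). The order of the groups was that of KDR, with every hPSC library above every other library. FLT1 did not pass the filter; in the fit with no filter it was lower than in hPSC in ectoderm (edgeR adjusted p = 1.09e-06) and mesoderm (edgeR adjusted p = 2.69e-05), and not called in endoderm (edgeR adjusted p = 0.232). The pooled ratio of hPSC to mesoderm was 24.9 (95% exact interval 4.09 to 1020), a range set by the single mesoderm count.

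FLT1 transcripts that stop before the last exon, of which 2 match reference forms that encode secreted FLT1, held 10 of 26 counts (hPSC), 3 of 4 (ectoderm), 8 of 9 (endoderm) and 1 of 1 (mesoderm). The full-length receptor transcript held 13 of 26 counts in hPSC and 1 of 9 in endoderm. The share that stops early was 38.5% in hPSC (exact binomial interval 20.2 to 59.4) and 88.9% in endoderm (51.8 to 99.7), so these intervals overlap. This split of FLT1, and those of NRP1 and KIT below, was chosen after the transcripts had been seen, and none was tested.

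NRP1, the co-receptor for VEGFA that also binds semaphorins (chr10:33177493-33335499, minus strand), followed another order. It had 1 and 2 counts (hPSC), 2 and 0 (ectoderm), 14 and 18 (endoderm), and 49 and 38 (mesoderm). Its level was 83.8 ± 11.9 CPM in mesoderm, 27.3 ± 4.81 in endoderm, 2.74 ± 1.16 in hPSC and 0.847 ± 1.20 in ectoderm (SD, n = 2 each). Mesoderm and endoderm lay apart from each other and above all hPSC and ectoderm libraries. NRP1 was called higher than in hPSC in mesoderm by 4.61 ± 0.59 (edgeR adjusted p = 2.82e-05) and in endoderm by 3.56 ± 0.68 (edgeR adjusted p = 0.00125). The pooled ratio to hPSC was 30.3 for mesoderm (95% exact interval 10 to 150) and 9.84 for endoderm (3.08 to 50.2). Against ectoderm, mesoderm was higher by 6.39 ± 0.57 (edgeR adjusted p = 7.72e-07) and endoderm lay 5.34 ± 0.67 above (edgeR adjusted p = 8.38e-06). The mesoderm call against hPSC held under each alternative (highest adjusted p 0.00518), whereas the endoderm call was lost when only transcripts matching a reference were counted (edgeR adjusted p = 0.0923). Mesoderm was called above endoderm by 1.04 ± 0.38 (edgeR adjusted p = 0.0333), a call lost with DESeq2 (adjusted p = 0.213), with no filter (edgeR adjusted p = 0.0604), with reference transcripts only (edgeR adjusted p = 0.137), with a length trend removed (edgeR adjusted p = 0.141) and on leaving out any 1 library of either group.

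Of the 12 NRP1 transcripts, 7 reach the last exon, which encodes the end of the membrane-bound receptor, and 5 stop upstream of it. A reference transcript of 12 exons among the latter encodes a secreted NRP1. In endoderm, transcripts that reach the last exon had 7 and 9 counts, and those that stop early also 7 and 9. In mesoderm the numbers were 30 and 27 against 19 and 11, so both kinds were found in both groups. The share that stops early was 50% in endoderm (exact binomial interval 31.9 to 68.1) and 34.5% in mesoderm (24.6 to 45.4). All 3 NRP1 counts in hPSC were on transcripts that stop early.

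**Figure D3:**
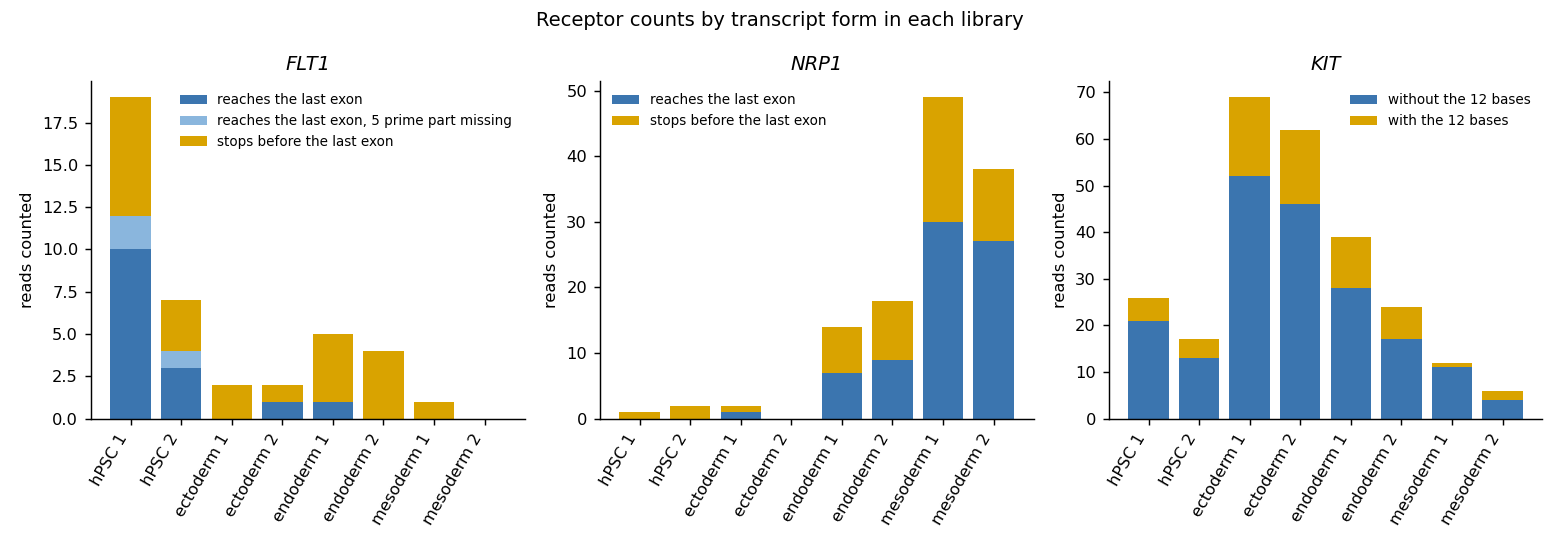
Reads counted for FLT1, NRP1 and KIT in each of the 8 libraries (vertical axis, own scale per panel), split by transcript form; bars are stacked counts, not scaled for library size. NRP1 counts are nearly confined to endoderm and mesoderm in both forms, and KIT forms without the 12 bases outnumber the others in every library.

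PDGFA was near the detection limit, with 3 and 2 counts (hPSC), 4 and 1 (ectoderm), 2 and 1 (endoderm), and 0 in each mesoderm library. All 13 counts were on 2 transcripts without exon 6, the exon shown above. A count of 0 of 5 in hPSC still allows a share of up to 52.2% (exact binomial interval). Over all 13 counts, the share without exon 6 was 100% (75.3 to 100). These counts cannot tell whether forms with exon 6 are rare or absent.

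PDGFRA, the receptor for PDGFA (chr4:54229089-54298245, plus strand), had 2 and 1 counts (hPSC), 5 and 1 (ectoderm), 1 and 1 (endoderm), and 8 and 15 (mesoderm). Both mesoderm libraries lay above the other 6. The mesoderm level was 22.4 ± 10.4 CPM (SD, n = 2), and the pooled ratio to hPSC was 8.01 (95% exact interval 2.42 to 41.7). PDGFRA did not pass the filter; in the fit with no filter, mesoderm was above hPSC (edgeR adjusted p = 0.0078), ectoderm (edgeR adjusted p = 0.000212) and endoderm (edgeR adjusted p = 0.00611). Of the 23 mesoderm counts, 17 were on transcripts that run from the 5′ part of the gene to its last exon. The 3 hPSC counts were all on a transcript of 11 exons that lacks the 5′ part.

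PDGFRB, the receptor typical of pericytes (chr5:150113837-150155895, minus strand), had 4 and 13 counts (hPSC), 25 and 20 (ectoderm), 7 and 7 (endoderm), and 17 and 20 (mesoderm). Its level was 15.4 ± 10.9 CPM (hPSC), 20.9 ± 0.348 (ectoderm), 11.9 ± 0.009 (endoderm) and 35.9 ± 5.44 (mesoderm; SD, n = 2 each). Mesoderm lay above all other libraries, and the 2 hPSC libraries enclosed ectoderm and endoderm. None of the 6 comparisons was called; mesoderm against hPSC was 0.93 (edgeR adjusted p = 0.159) and mesoderm against ectoderm 0.96 (edgeR adjusted p = 0.09). Without repeat 2 of hPSC, mesoderm was called higher than hPSC by 2.11 (edgeR adjusted p = 0.0126), and without either hPSC library it was called higher than ectoderm. Without TMM, mesoderm was called higher than endoderm by 1.57 (edgeR adjusted p = 0.0196), where the fit with TMM gave 1.01 (edgeR adjusted p = 0.124). Transcripts that reach the last exon held 106 of 113 counts.

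KITLG had 8 counts in all: 1 and 3 (hPSC), 0 and 3 (ectoderm), 0 and 0 (endoderm), and 1 and 0 (mesoderm). All were on 1 transcript with exon 6, which encodes the form that can be released. The 4 hPSC counts allow a share of forms with exon 6 as low as 39.8% (exact binomial interval).

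KIT, the receptor for KITLG (chr4:54657889-54740724, plus strand), was counted in all groups and least in mesoderm. It had 26 and 17 counts (hPSC), 69 and 62 (ectoderm), 39 and 24 (endoderm), and 12 and 6 (mesoderm). Its level was 40.2 ± 14 CPM (hPSC), 61.3 ± 4.01 (ectoderm), 53.8 ± 18.1 (endoderm) and 17.3 ± 7.56 (mesoderm; SD, n = 2 each). The mesoderm libraries lay below all others, ectoderm lay above hPSC without overlap, and endoderm overlapped both. Ectoderm against hPSC was 0.20 ± 0.36 in the fit (edgeR adjusted p = 0.661), which was not called. KIT was called lower in mesoderm than in ectoderm (log2 fold change -1.62 ± 0.41, edgeR adjusted p = 0.00656), endoderm (-2.18 ± 0.43, edgeR adjusted p = 0.000769) and hPSC (-1.41 ± 0.45, edgeR adjusted p = 0.0232). The call against hPSC was lost with DESeq2 (adjusted p = 0.096), with reference transcripts only (edgeR adjusted p = 0.0558), without TMM (edgeR adjusted p = 0.0698) and without any 1 of 5 libraries, with adjusted p up to 0.231 without repeat 2 of mesoderm. The call against ectoderm was lost only without that library (edgeR adjusted p = 0.0967). With a length trend removed, ectoderm was called below endoderm in KIT (-1.25, edgeR adjusted p = 0.00472), where the fit without this step gave -0.57 (edgeR adjusted p = 0.154) and that without TMM 0.19 (edgeR adjusted p = 0.66), the opposite direction.

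The 255 KIT counts fell on 12 transcripts, which could all be told apart at the end of exon 9. Forms without the 12 bases shown above in capitals held 192 of 255 counts, or 75.3% (exact binomial interval 69.5 to 80.5). By group the share was 79.1% for hPSC (64 to 90), 74.8% for ectoderm (66.5 to 82), 71.4% for endoderm (58.7 to 82.1) and 83.3% for mesoderm (58.6 to 96.4). The form without the 12 bases was the larger in every library, and the intervals of the 4 groups overlapped. KIT, PDGFRA and KDR are neighbours on chromosome 4. By CPM their highest groups were ectoderm, mesoderm and hPSC, although for KIT the fit with TMM placed endoderm above ectoderm without a call.

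**Figure D4:**
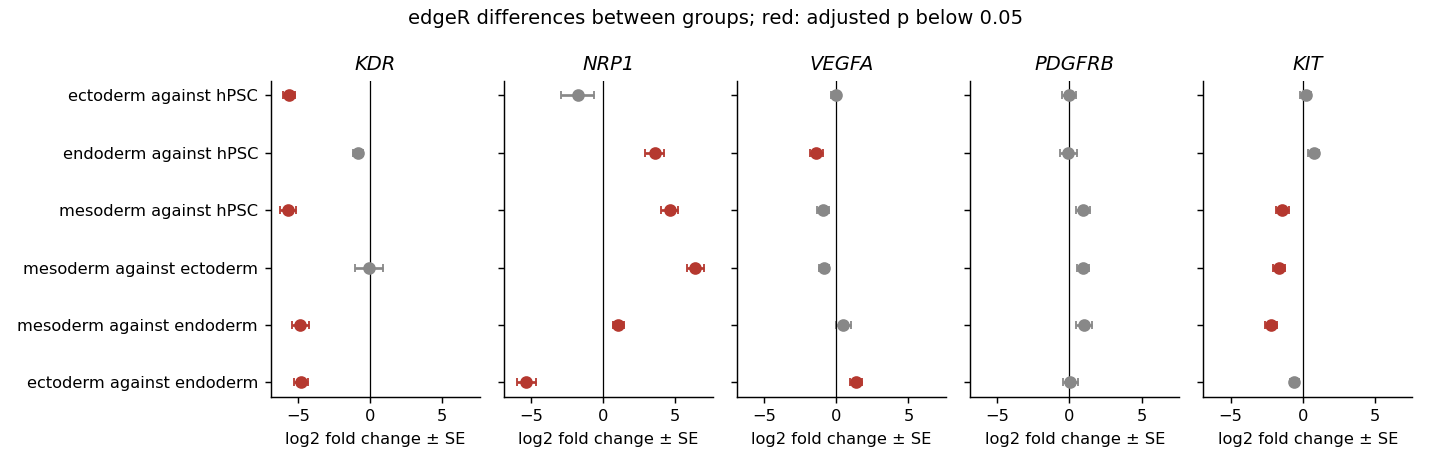
Log2 fold change with its standard error (horizontal axis) of the 5 tested genes in the 6 comparisons between groups, from edgeR; red points have an adjusted p under 0.05. KDR and NRP1 have the changes farthest from 0, and no point of PDGFRB is red.

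No gene of the 10 had 2 transcripts above the filter, so changes in transcript choice could not be tested for them; over all 2634 genes tested, 5.2% changed in ectoderm, 4.1% in endoderm and 5.43% in mesoderm against hPSC. Across the 8 libraries, the genes whose log2 CPM was most like KDR were OR52A1 (Pearson r = 0.993) and ENSG00000289894 (r = 0.99). Those most like NRP1 were RGL2 (r = 0.991) and ARPC5 (r = 0.99), and those most like VEGFA were MTMR12 (r = 0.985) and IGF2BP3 (r = 0.979). PDGFRB was most like GNG10 (r = 0.937) and PLPBP (r = 0.935), and KIT most like ETS2 (r = 0.967) and MIR34AHG (r = 0.956). These are the highest of all tested genes over only 4 groups of 2 libraries, and are given as a description.

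Of 22 other ligands, receptors and partners of these systems, 20 had counts and 12 were tested. In ectoderm 4 were called higher and 1 lower than in hPSC, in endoderm 4 higher and 0 lower, and in mesoderm 5 higher and 0 lower (without TMM 6 and 1, 4 and 1, and 5 and 0), where 23.8%, 13.4% and 16.9% of all tested genes were called higher and 24.8%, 13.8% and 18.2% lower. The median log2 fold change of the 12 was 0.81 in ectoderm, 0.81 in endoderm and 1.02 in mesoderm, against -0.01, -0.13 and 0.01 over all tested genes. PGF, a ligand of FLT1, had 6 and 4 counts in hPSC and 44 and 35 in mesoderm, and rose there by 2.79 ± 0.43 (edgeR adjusted p = 0.000139). CSF1, the ligand of a receptor related to KIT, had 3 and 4 counts in hPSC and 50 and 41 in mesoderm, and rose by 3.49 ± 0.45 (edgeR adjusted p = 2.85e-05).

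NRP2, the paralogue of NRP1, rose in all 3 differentiated groups, by 1.25 ± 0.33 in ectoderm (edgeR adjusted p = 0.00569), 2.13 ± 0.34 in endoderm (edgeR adjusted p = 0.000267) and 0.96 ± 0.36 in mesoderm (edgeR adjusted p = 0.0468; 0.0515 with DESeq2 size factors). The plexins are the signalling partners of neuropilins for semaphorins. PLXNA2 had 1 and 0 counts (hPSC), 15 and 7 (ectoderm), 190 and 193 (endoderm), and 23 and 16 (mesoderm), and was called higher in each. PLXNA1 rose in endoderm by 1.94 (edgeR adjusted p = 0.00151), and PLXNA3 rose in endoderm by 3.39 (edgeR adjusted p = 0.00118) and in ectoderm by 1.72 (edgeR adjusted p = 0.04997; 0.0558 with DESeq2 size factors). The semaphorin SEMA3C was at 0 in hPSC and endoderm and had 19 and 37 counts in mesoderm, where it was called higher (edgeR adjusted p = 0.000181), and SEMA3F rose in ectoderm by 1.00 (edgeR adjusted p = 0.0394). PDGFB, a ligand of PDGFRB, fell by 3.0 on the log2 scale in ectoderm (edgeR adjusted p = 0.00077). VEGFC and VEGFD were at 0 in all 8 libraries, and their receptor FLT4, which was not tested, had 11 and 6 counts in hPSC and 0 in both mesoderm libraries.

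**Figure D5:**
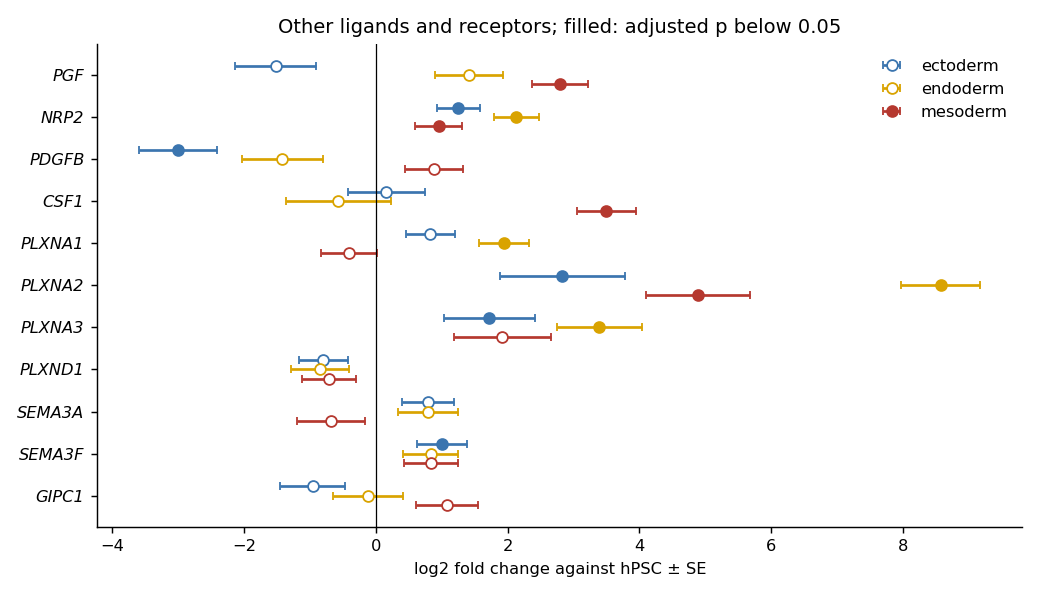
Log2 fold change against hPSC with its standard error (horizontal axis) for 11 other tested ligands, receptors and partners in 3 differentiated groups; filled points have an adjusted p under 0.05. SEMA3C is left out because it was at 0 in hPSC. PLXNA2 in endoderm lies farthest to the right, and PGF and CSF1 are filled only in mesoderm.

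Of 24 relays that carry signals from such receptors into the cell, 21 were tested. Against hPSC, ectoderm had 5 called higher and 2 lower, endoderm 2 and 2, and mesoderm 4 and 4 (without TMM 9 and 1, 2 and 3, and 6 and 4). Over all tested genes the shares called higher and lower were 23.8% and 24.8% (ectoderm), 13.4% and 13.8% (endoderm), and 16.9% and 18.2% (mesoderm), so the mesoderm counts lay near the background. PLCG1, the phospholipase that KDR activates, had 63 and 37 counts in hPSC and 3 and 8 in mesoderm, and in mesoderm it fell by 3.31 on the log2 scale (edgeR adjusted p = 0.00104). STAT3 fell by 1.54 in mesoderm (edgeR adjusted p = 0.00113), and the phosphatase PTPN11 rose in ectoderm by 2.56 (edgeR adjusted p = 0.000181).

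Genes switched on by ERK signalling, which includes its feedback inhibitors, were counted as a further readout. Of 13 tested, 7 were called lower and 2 higher in mesoderm than in hPSC, 5 lower and 1 higher in ectoderm (4 lower without TMM), and 2 lower and 2 higher in endoderm. Over all tested genes, 18.2% were called lower in mesoderm, 24.8% in ectoderm and 13.8% in endoderm. The median log2 fold change of the 13 was -1.99 in mesoderm, -1.10 in ectoderm and 0.53 in endoderm, against 0.01, -0.01 and -0.13 over all tested genes. ETV4 had 153 counts in each hPSC library and 5 and 6 in mesoderm, where it fell by 4.95 on the log2 scale (edgeR adjusted p = 3.96e-07), and ETV5 fell by 3.57 (edgeR adjusted p = 6.83e-06). IER3 was called higher in endoderm, by 6.41 ± 0.62 (edgeR adjusted p = 2.99e-06).

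VEGFA is a known target of the hypoxia factors, so these and other targets were counted beside it. Of 18 tested, 4 were called higher and 5 lower for ectoderm against hPSC, 2 and 1 for endoderm, and 5 and 7 for mesoderm. The ectoderm counts lay near the 23.8% higher and 24.8% lower of all tested genes. The shares over all tested genes were 13.4% and 13.8% for endoderm, and 16.9% and 18.2% for mesoderm. Without TMM, endoderm had 2 called higher and 2 lower. EPAS1, which encodes a hypoxia factor also known from endothelium and placenta, had 2 and 5 counts in hPSC and 873 and 842 in mesoderm, a rise of 7.72 ± 0.47 (edgeR adjusted p = 5.69e-08). HIF1A rose in ectoderm by 3.16 (edgeR adjusted p = 1.09e-05) and in mesoderm by 2.66 (edgeR adjusted p = 6.07e-05). The target ADM rose in endoderm by 2.43 (edgeR adjusted p = 0.000226) and fell by 2.89 in mesoderm (edgeR adjusted p = 0.00021). In ectoderm ADM fell by 3.64 (edgeR adjusted p = 1.97e-05). A link between these genes and the level of VEGFA was not tested.

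Markers of the cells that usually carry these receptors were counted as a whole. Of 19 markers of endothelium and blood progenitors, PECAM1, TAL1, ERG, SOX18, ESAM, EMCN and ROBO4 were at 0 in all 8 libraries, and CDH5 had 5 and 3 counts in mesoderm. Their summed level was 206.4 to 218.4 CPM in mesoderm, 110.3 to 138.6 in hPSC, 126.2 to 145.8 in ectoderm and 124.7 to 177.4 in endoderm. Of 5 tested, GATA2 and RUNX1 were called higher in mesoderm than in hPSC, and VWF in ectoderm and endoderm. EGFL7, a secreted protein of endothelium, went the other way, and fell by 2.16 in mesoderm (edgeR adjusted p = 0.000546); it fell by 2.43 in ectoderm (edgeR adjusted p = 8.25e-05). GATA2, which is also a trophoblast gene, had 53 and 43 mesoderm counts (edgeR adjusted p = 1.05e-05). Of 5 tested mural and mesenchyme markers, 2 were called higher in mesoderm, with COL1A1 at 1548 and 1880 counts there against 130 and 96 in hPSC. Endoderm also had 2 called higher, TAGLN by 2.96 (edgeR adjusted p = 8.57e-05) and RGS5 by 1.26 (edgeR adjusted p = 0.0347, or 0.0966 without TMM), and 1 lower. Ectoderm had 1 higher and 1 lower. Over all tested genes, 16.9% were called higher in mesoderm, 13.4% in endoderm and 23.8% in ectoderm. TCF21 and TWIST1 were at 0 in all 8 libraries. Of 6 neural crest and melanocyte markers, ERBB3 alone was tested and called, higher in mesoderm by 0.97 (edgeR adjusted p = 0.0311) and lower in endoderm (-1.17, edgeR adjusted p = 0.0497; 0.0605 with DESeq2 size factors).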

How the data were processed

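Transcripts were assembled and reads counted by the authors; the submitters' processing notes name minimap2, StringTie and GRCh38 (hg38), with no versions. The deposited tables hold whole raw counts per assembled transcript with no normalization. The deposited endoderm columns were recorded here under the unit expected counts, but are whole raw counts like the others, so nothing was rounded. The treatment of reads that similar transcripts share, and of strand, is not given in the sources used here. The deposited gene models (unit other) gave exons and coordinates.

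Gene counts were summed over transcripts named for a gene; 9847 of the 96614 transcripts, listed under a gene by position only, were counted as loci of their own. edgeR 4.0.16 in R 4.3.3 was used with TMM, filterByExpr at a minimum count of 10, and 1 two-sided quasi-likelihood fit over all 8 libraries, with Benjamini-Hochberg adjustment over 10843 genes at 0.05. The SE is the log2 fold change divided by the square root of F. CPM uses the library total; log2 CPM has a prior count of 2. Transcript choice was tested with diffSpliceDGE. Forms were assigned from exon chains against GENCODE 29. Intervals are 95% exact (Clopper-Pearson) for shares, exact conditional binomial for pooled ratios, and Newcombe's for differences of shares; they cover counting error only. A share was to be tested only with at least 5 assigned counts in every library. The tests were checked on simulated data.

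The members, lists, rule for named genes and alternatives were chosen with earlier results of these data known. The rule named all 10 members in all groups, the 2 genes most like each tested member, every listed ligand or receptor called against hPSC, and up to 3 genes of smallest p from each other list. Alternatives were DESeq2 1.42.0, its size factors, no filter, a replicate block, reference transcripts only, transcripts listed by position, removal of a length trend, separate assemblies, and each library left out; library totals without TMM were added after the data were seen. The authors' CPM tables were not used.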

Additional observations from a re-analysis of the deposited data

Results flagged for a closer look

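A single-exon transcript on the strand opposite to FLT1, which overlaps the end of its last exon (chr13:28296449-28301186, plus strand), is listed under FLT1 by position only and was left out of its counts. It had 0 and 0 counts (hPSC), 2 and 0 (ectoderm), 0 and 0 (endoderm), and 2 and 2 (mesoderm). Its 4 mesoderm counts, against 0 in hPSC, drew attention, although the 2 counts of each mesoderm library lie within the 3 that a count of 0 allows. A single-exon transcript inside an intron of NRP1 on the same strand (chr10:33310115-33315955, minus strand) had 0 and 1 counts (hPSC), 2 and 0 (ectoderm), 2 and 0 (endoderm), and 2 and 3 (mesoderm). Its 5 mesoderm counts against 1 in hPSC drew attention in the same way. Neither difference was tested.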

How the results depend on the processing

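The KDR falls in ectoderm and mesoderm against hPSC and endoderm, the NRP1 rise in mesoderm against hPSC and ectoderm, its difference between endoderm and ectoderm, and the KIT difference between mesoderm and endoderm kept their direction and stayed called in all 16 other fits. The lost calls of VEGFA, NRP1 and KIT stand beside their values above; the cause was not tested. Counts are the limit for the other genes: 5 members fell below the filter, and a single library at 0 still allows up to 3 reads.

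With DESeq2's Wald test, 3354 genes were called in ectoderm, 1831 in endoderm and 2315 in mesoderm against hPSC (edgeR 5280, 2952 and 3805), 2010 between mesoderm and ectoderm (edgeR 3848), and 1 member in endoderm. With no filter, where all 10 members are tested, 2 members were called in ectoderm, 1 in endoderm and 5 in mesoderm against hPSC. Between mesoderm and endoderm 5 were called, and between ectoderm and endoderm 5. In that fit 6358 genes were called in ectoderm against hPSC, of 29838 with any count. These numbers of members are not in themselves a result about them. With reference transcripts only, 0 members were called by edgeR in endoderm against hPSC, where 1 was called by DESeq2 on all transcripts; VEGFA then had an adjusted p of 0.0549 and NRP1 of 0.0923. Changes of transcript choice in ectoderm went from 137 to 232 genes at a minimum count of 5.

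Leaving out 1 library at a time gave 3299 to 5932 genes called in ectoderm, 1458 to 4074 in endoderm and 2020 to 5084 in mesoderm against hPSC, 1784 to 5637 between mesoderm and ectoderm, 3388 to 6481 between mesoderm and endoderm, and 5333 to 8207 between ectoderm and endoderm. In the same order, 1 to 2, 1 to 3, 3 to 5, 1 to 5, 2 to 5 and 2 to 4 members were called; the filter was reset in each fit, so members outside it above could enter. Transcript choice gave 14 to 181 genes in ectoderm, 36 to 113 in endoderm and 35 to 188 in mesoderm. The difference between the highest and lowest group in VEGFA forms was 16.3 points for forms without exons 6 and 7 (9.23 to 26.3 on leaving out 1 library, 33.3 in separate assemblies) and 56.7 points for forms with exon 7 alone (39.1 to 58.3, and 100 in separate assemblies). KITLG had too few counts for such a difference, as had PDGFA with reference transcripts only or without an hPSC or ectoderm library.

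Uncalled differences near 0 changed sign. For VEGFA in ectoderm against hPSC the values were 0.00183 with DESeq2, 0.158 with no filter, 0.122 with reference transcripts, 0.0578 with transcripts listed by position and 0.37 without TMM (-0.0601 to 0.15 on leaving out 1 library). For PDGFRB in ectoderm they were 0.00166, 0.193, 0.0776, 0.0929 and 0.416 under the same settings, and 0.00937 with the replicate block (-0.748 to 1.22). For PDGFRB in endoderm they were 0.202 with reference transcripts, 0.0124 with transcripts listed by position and 0.0613 with the length trend removed (-0.778 to 1.11). PDGFRB between ectoderm and endoderm went to -0.032 with DESeq2 size factors, -0.124 with reference transcripts and -0.696 with the length trend removed. With the length trend removed, KIT in ectoderm against hPSC was -0.335 and KDR between mesoderm and ectoderm 0.219 (-0.514 to 0.248 on leaving out 1 library); KIT between ectoderm and endoderm was 0.186 without TMM.

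Repeat numbers were not treated as pairs in the main fit. Deviations of same-numbered libraries correlated from -0.035 to 0.151, which cannot show how the repeats were made. The replicate block gave 5105, 2798 and 3613 genes called against hPSC in ectoderm, endoderm and mesoderm, and the number of members called was as in the fit without it in all 6 comparisons.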
